A study of Homo sapiens with 3 samples.

Results

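SNORD45A, SNORD45B and SNORD45C are 3 box C/D small nucleolar RNAs (snoRNAs) encoded in introns of RABGGTB, the gene of the beta subunit of Rab geranylgeranyl transferase. They were chosen by name, as the records listed under the U45 entries with the letters A, B and C, and are 3 of 260 snoRNA entries, 147 of them box C/D. The study sequenced small RNA of HEK293, a line derived from human embryonic kidney, grown in serum-supplemented DMEM, in 3 libraries that form 1 group with no treatment named. The Ion Total RNA-Seq Kit v2 was used on small RNA that had been purified with magnetic beads after a phenol and chloroform extraction. Nothing in the labels says that the libraries came from separate cultures, so no p-value can be taken to cover the spread between cultures. The spread among the libraries may be technical.

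Box C/D snoRNAs hold short conserved motifs, box C near the 5′ end and box D near the 3′ end, with internal copies called D′ and C′. The bases just before box D or D′ pair with a target RNA, and the methylase fibrillarin then adds a methyl group to the ribose of the base paired to the fifth position before the box. The U45 snoRNAs are known as guides for the small ribosomal subunit RNA, 18S rRNA. Intronic snoRNAs are cut out of the spliced intron and trimmed at both ends, so their 5′ and 3′ ends are set by the proteins bound to them.

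The 3 RNAs are shown whole, because the results turn on where their boxes lie and on which stretches they share. Capitals mark box C (searched as ATGATG, first match), box D′ (first CTGA) and box D (last CTGA), all on the RNA strand. The sequences are GENCODE 29 transcripts on GRCh38, written with T for U.
SNORD45A: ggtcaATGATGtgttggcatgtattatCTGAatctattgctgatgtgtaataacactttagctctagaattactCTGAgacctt
SNORD45B: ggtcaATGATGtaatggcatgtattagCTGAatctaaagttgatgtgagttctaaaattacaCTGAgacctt
SNORD45C: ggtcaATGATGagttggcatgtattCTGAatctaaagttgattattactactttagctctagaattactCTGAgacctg
In SNORD45A a further CTGA lies between D′ and D, so CTGA occurs 3 times there and 2 times in each of the others. Of 122 box C/D entries with a GENCODE sequence, 54.1% hold ATGATG in their first 20 bases and 96.7% hold CTGA in their last 20 bases.

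All 3 lie on the plus strand of chromosome 1 within RABGGTB (ENSG00000137955.15, 75786197 to 75795079, GRCh38). SNORD45C (ENSG00000206620.1) spans 75787072 to 75787150 in intron 1 of the transcript RABGGTB-201. SNORD45A (ENSG00000207241.1) spans 75787889 to 75787972 in intron 2, and SNORD45B (ENSG00000201487.1) spans 75789477 to 75789548 in intron 3. Of 14 annotated RABGGTB transcripts, 2 carry an exon over SNORD45A, 2 over SNORD45B and 1 over SNORD45C. The highest positions seen in the files were 83, 71 and 78, each 1 base short of the GENCODE length of 84, 72 and 79. RefSeq starts all 3 genes at the same base and gives SNORD45A 84, SNORD45B 71 and SNORD45C 78 bases. Positions in the files were therefore counted from that first base, a frame that the files themselves do not state.

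The paralogs differed in part in the stretches ahead of boxes D′ and D. Pairing of these stretches with 18S rRNA was not computed. SNORD45A and SNORD45C were identical at 71 of 83 alignment columns (85.5%), SNORD45A and SNORD45B at 62 of 83 (74.7%), and SNORD45B and SNORD45C at 61 of 80 (76.2%). The stretch at positions 16 to 25, ahead of box D′, was the same in all 3, but its distance to the box was not: 2 bases separate it from D′ in SNORD45A and SNORD45B and 0 in SNORD45C. The sequences from that stretch to the end of the box show the shift.
SNORD45A: ggcatgtattatCTGA
SNORD45B: ggcatgtattagCTGA
SNORD45C: ggcatgtattCTGA
Ahead of box D the same 14 bases stand in SNORD45A and SNORD45C and a different set in SNORD45B.
SNORD45A: gctctagaattactCTGA
SNORD45B: gttctaaaattacaCTGA
SNORD45C: gctctagaattactCTGA
The 3′ ends of SNORD45A and SNORD45C share 29 bases in the frame of the files, positions 55 to 83 and 50 to 78. A short read that lies within this stretch could come from either RNA. The longest stretch shared by SNORD45A and SNORD45B has 12 bases and that shared by SNORD45B and SNORD45C has 17, below the shortest read of 18 nt.

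Library totals were 19989, 11958 and 19092 counts on snoRNAs, and the 3 paralogs together held 1252, 395 and 671 of them, 6.26%, 3.30% and 3.51%. A count of 0 would allow a share of up to 0.015%, 0.0251% and 0.0157%, taking 3 counts as the floor, and 95% intervals are exact (Clopper-Pearson). Reads carry no molecular identifiers, so intervals and floors cover counting error only. Library 2 had shorter reads over all snoRNAs, with 27.3% of counts at up to 40 nt against 11.9% in library 1 and 12.1% in library 3. Records on the opposite strand of the paralogs numbered 0.

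The levels of the paralogs stood in 1 order in every library, SNORD45A above SNORD45C above SNORD45B. SNORD45A had 742, 271 and 379 reads, or 3.71%, 2.27% and 1.99% of the library counts. SNORD45C had 432, 84 and 225 reads, or 2.16%, 0.702% and 1.18%. SNORD45B had 78, 40 and 67 reads, or 0.390%, 0.335% and 0.351%. SNORD45B varied least between libraries, while SNORD45A and SNORD45C were highest in library 1. The 95% intervals of the 3 RNAs did not overlap within any library.

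SNORD45A averaged 2.65% ± 0.93 of the counts, SNORD45C 1.35% ± 0.74 and SNORD45B 0.359% ± 0.029 (SD, n = 3 each), where the 147 box C/D entries had a median of 0.332%. By mean share SNORD45A was number 7 among all 260 entries, between SNORD42B (2.73% ± 0.77) and SNORD24 (2.5% ± 0.38; SD, n = 3). SNORD45C was number 18, though number 12, 35 and 28 in the single libraries and at 0.940% without library 1, between SNORD63 (1.44% ± 0.19) and SNORD102 (1.34% ± 0.072), and SNORD45B was number 73, between SNORD121A (0.362% ± 0.14) and SNORD18C (0.357% ± 0.17; SD, n = 3 each). None of these neighbours differed from the paralog beside it by more than 1 SD. Per length, as the share for each 100 nt of RNA, SNORD45A was number 9, SNORD45C number 21 and SNORD45B number 63.

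Within libraries SNORD45A exceeded SNORD45B 7.14-fold by reads (log2 2.84 ± 0.38, SD, n = 3) and 6.11-fold per length. SNORD45A exceeded SNORD45C 2.11-fold (log2 1.07 ± 0.53) and 1.98-fold per length, and SNORD45C exceeded SNORD45B 3.39-fold (log2 1.76 ± 0.70; SD, n = 3) and 3.09-fold per length. Each of the 3 differences had the same direction in 3 of 3 libraries. A sign-flip permutation test (exact, two-sided) gave p = 0.25 for each, and 0.25 after Benjamini-Hochberg adjustment over the 3 pairs, the smallest p that 3 libraries allow. Among reads whose length equals their span, SNORD45A exceeded SNORD45B 22.1-fold and SNORD45C exceeded SNORD45B 8.17-fold, because most SNORD45B reads fail that condition.

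**Figure D1:**
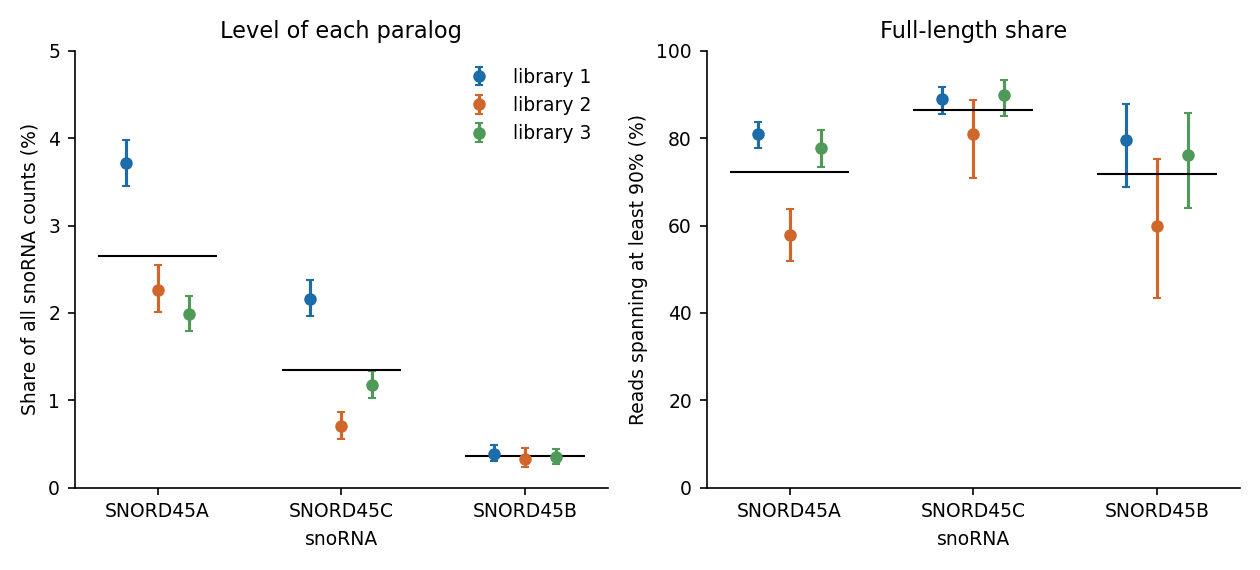
Share of all snoRNA counts (left, %) and share of reads spanning at least 90% of the RNA (right, %) for SNORD45A, SNORD45C and SNORD45B in 3 libraries. Points are libraries with exact 95% binomial intervals and black lines are means of 3 libraries: levels fall from 2.65% for SNORD45A to 0.359% for SNORD45B, while the full-length share is highest for SNORD45C at 86.5%.

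The spread between SNORD45 paralogs was wide but not the widest among the listed box C/D families that share a host gene. Per length, the highest SNORD45 member exceeded the lowest 8.14-, 5.80- and 4.84-fold in the 3 libraries, and 6.33-fold by mean share. SNORD38B exceeded SNORD38A 36.5-, 50.3- and 38.3-fold, with as few as 6 reads for the lower one. SNORD42B exceeded SNORD42A 6.24-, 7.26- and 3.83-fold, and SNORD50B exceeded SNORD50A 3.73-, 2.11- and 10.7-fold. The highest SNORD58 member exceeded the lowest 3.11-, 7.22- and 2.56-fold, and in SNORD49 the folds were 3.70, 2.65 and 3.65. SNORD42 and SNORD58 thus spread further than SNORD45 in library 2, and SNORD50 in library 3. In SNORD18 the folds were 1.77, 2.79 and 1.45, and in SNORD36 3.34, 1.45 and 2.38. SNORD59 had folds of 2.60 and 1.64 in libraries 1 and 3 and a member with 0 reads in library 2. These are descriptions of levels with no test.

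Reads covering 90% or more of the RNA, called full-length here, dominated all 3 paralogs, and SNORD45C had the largest share. SNORD45A had 600, 157 and 295 such reads, 80.9%, 57.9% and 77.8% of its reads. SNORD45C had 384, 68 and 202, or 88.9%, 81.0% and 89.8%. SNORD45B had 62, 24 and 51, or 79.5%, 60% and 76.1%. Library 2 was lowest for each paralog, and SNORD45C lay above both others in every library.

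The mean full-length share was 72.2% ± 12 for SNORD45A, 86.5% ± 4.9 for SNORD45C and 71.9% ± 10 for SNORD45B (SD, n = 3 each), against 63.5% ± 7.5 over all snoRNA counts. Among 108 box C/D entries the median was 70.3%, with SNORD45C number 11, SNORD45A number 52 and SNORD45B number 53. SNORD45A stood 14.3 percentage points below SNORD45C (-14.3 ± 7.8) and SNORD45C stood 14.7 ± 5.8 above SNORD45B, in 3 of 3 libraries each (SD, n = 3; exact sign-flip permutation p = 0.25, adjusted 0.375 over the 3 pairs). SNORD45A and SNORD45B differed by 0.34 ± 2.1 points (SD, n = 3), with 2 of 3 libraries in that direction and an exact permutation p of 1.

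Against the rest of the snoRNAs, full-length and other reads were counted per library and fitted for 125 entries with edgeR's quasi-likelihood test. SNORD45C, with 654 full-length and 87 other reads, had relatively more full-length reads than the scaling set, with a log2 ratio of 1.42 ± 0.21 (SE, n = 3; edgeR adjusted p = 0.000117). SNORD45A (1052 and 340 reads; 0.13 ± 0.24) and SNORD45B (137 and 48 reads; 0.086 ± 0.43) had adjusted p of 0.653 and 0.866 in edgeR. With these scaling factors the median over all 125 log2 ratios was -0.25. Full length was taken from the highest position of each entry, so this comparison describes the entries as well as the RNAs. SNORD69, for example, had 2 full-length and 1170 other reads, though 68 of its reads had up to 40 nt and 1104 were longer. Calls were common: 60.8% of the entries passed in either direction and 23.2% toward more full-length reads, beside 1 of 3 paralogs. By TMM scaling 29 entries passed toward more and 47 toward fewer full-length reads, by column totals 40 and 34, and by DESeq2 28 and 30. The SNORD45C call held without each library in turn, with log2 ratios of 1.35 to 1.46.

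**Figure D2:**
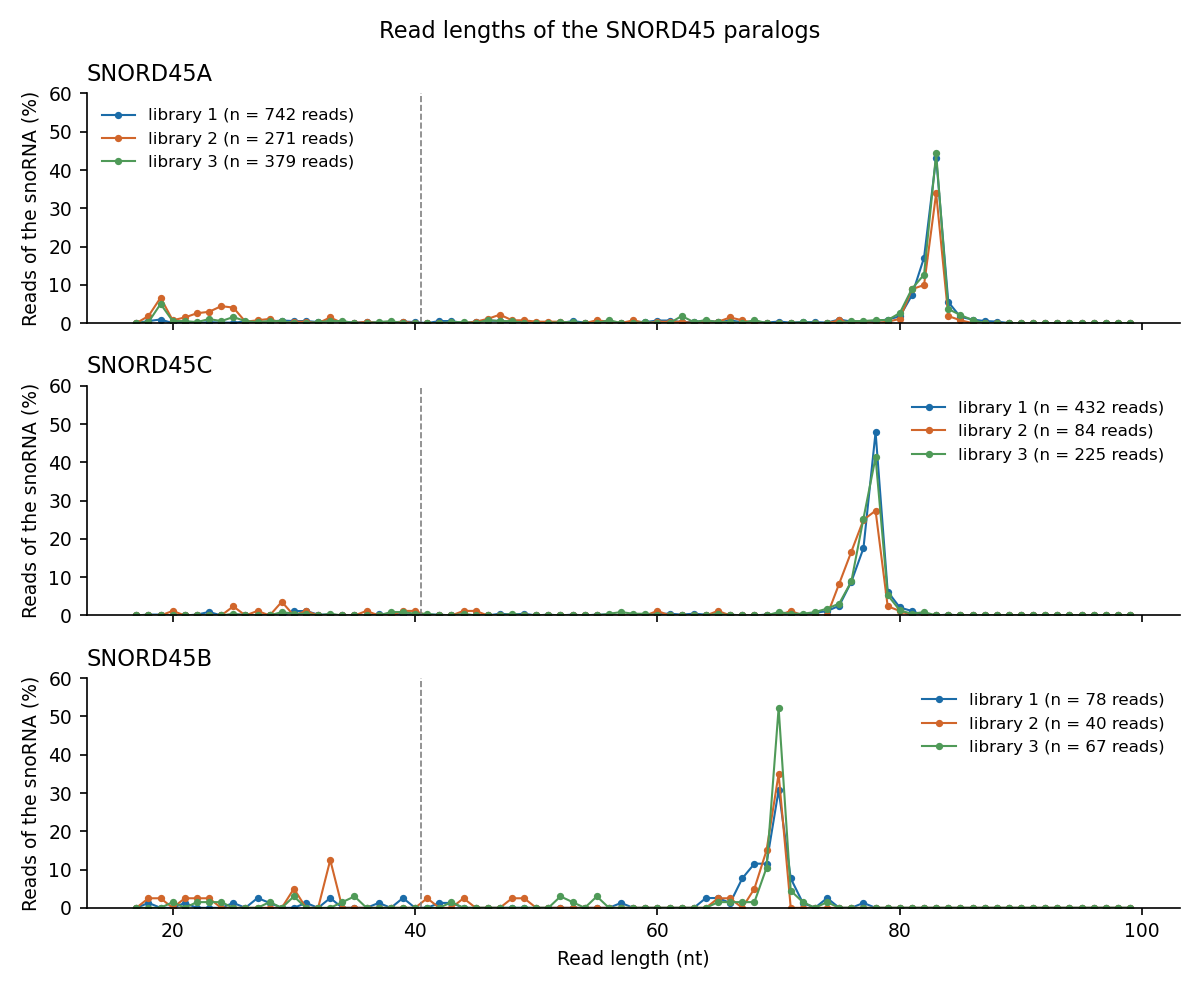
Read lengths (nt, x axis) of SNORD45A, SNORD45C and SNORD45B as a percentage of the reads of that RNA in each library, with a dashed line between 40 and 41 nt. The commonest length is 83 nt for SNORD45A and 78 nt for SNORD45C, at or next to the full RNA, and 70 nt for SNORD45B, 1 nt below its span of 71; SNORD45A also shows a small peak at 19 nt.

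In each paralog more reads started at the first position than ended at the last, with short reads included. Reads longer than their span made up 15.2% ± 7.0 of SNORD45A, 14.6% ± 5.5 of SNORD45C and 7.10% ± 5.3 of SNORD45B reads (SD, n = 3 each). Their median share was 14.1% among 108 box C/D entries. Where their further bases lie is not given, so a placed end need not be the end of the read. Reads starting at position 1 made up 92.0% ± 1.8 of SNORD45A, 91.9% ± 2.5 of SNORD45C and 75.7% ± 5.0 of SNORD45B reads, where the median was 8.57% among 108 box C/D entries with at least 10 counts in every library. Position 1 depends on where the authors' entry begins, so this comparison describes the entries as well as the RNAs. Reads ending at the last position were 48.3% ± 8.6 of SNORD45A, 57.9% ± 10 of SNORD45C and 55.5% ± 14 of SNORD45B, and those ending within the last 3 positions were 73.3% ± 11, 87.3% ± 3.5 and 79.1% ± 7.7 (SD, n = 3 each). The most frequent read of each RNA ran from its first to its last position, with 375, 95 and 186 reads for SNORD45A, 258, 36 and 141 for SNORD45C and 33, 13 and 41 for SNORD45B. For SNORD45A the next were 1 to 82 (122, 28 and 52 reads) and 1 to 81 (62, 25 and 34 reads). SNORD45C followed the same staircase, with 61, 15 and 34 reads from 1 to 77 and 42, 12 and 16 from 1 to 76. In SNORD45B 1 to 70 had 11, 7 and 5 reads and 1 to 69 had 5, 2 and 0.

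Short reads, those of up to 40 nt, were a minority of the reads of each paralog. SNORD45A had 57, 81 and 52 of them, 7.68%, 29.9% and 13.7% of its reads. SNORD45C had 25, 11 and 11, or 5.79%, 13.1% and 4.89%, and SNORD45B had 12, 12 and 10, or 15.4%, 30% and 14.9%. In every paralog the share was highest in library 2, the library with the most short reads over all snoRNAs.

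The mean short-read share was 17.1% ± 11 for SNORD45A, 7.92% ± 4.5 for SNORD45C and 20.1% ± 8.6 for SNORD45B (SD, n = 3 each). Among 108 box C/D entries the median was 15.4%, with SNORD45B number 37, SNORD45A number 44 and SNORD45C number 92. SNORD45A stood 9.17 ± 7.5 percentage points above SNORD45C and SNORD45C 12.2 below SNORD45B (-12.2 ± 4.1), in 3 of 3 libraries, and SNORD45A was 3.01 below SNORD45B (-3.01 ± 4.1), also in 3 of 3 (SD, n = 3; exact sign-flip permutation p = 0.25 each, adjusted 0.25 over the 3 pairs). Without library 2 the SNORD45A share was 10.7% and its difference from SNORD45C 5.36 points, and without library 1 its difference from SNORD45B was -0.66 points. In the edgeR fit over 125 entries, short over longer reads, SNORD45C (47 and 694 reads) had a log2 ratio of -1.16 ± 0.27 (SE, n = 3; edgeR adjusted p = 0.018), where 34.4% of entries were called and 14.4% toward fewer short reads. The SNORD45C call was lost without library 1 (edgeR adjusted p = 0.12) and without library 3 (adjusted p = 0.147). SNORD45A (190 and 1202 reads) and SNORD45B (34 and 151 reads) had 0.031 ± 0.31 and 0.45 ± 0.35, with edgeR adjusted p of 0.944 and 0.356.

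Short reads of SNORD45A and SNORD45C lay at the 5′ end, and those of SNORD45B at both ends. By the midpoint of the read, SNORD45A had 6, 5 and 2 short reads in the 3′ part of the RNA and 51, 76 and 50 in the 5′ part. SNORD45C had 3, 2 and 1 in the 3′ part and 22, 9 and 10 in the 5′ part. SNORD45B had 6, 5 and 6 in the 3′ part and 6, 7 and 4 in the 5′ part. The 3′ and 5′ counts did not overlap in SNORD45A or SNORD45C and overlapped in SNORD45B. The share of all entries that separate likewise is not given here, so this describes the counts only.

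In the edgeR fit of 3′ over 5′ short reads for 133 entries, the log2 ratio was -3.75 ± 0.62 for SNORD45A (SE, n = 3; edgeR adjusted p = 1.37e-07). It was -2.68 ± 0.88 for SNORD45C (SE; edgeR adjusted p = 0.0156) and 0.020 ± 0.89 for SNORD45B (SE; edgeR adjusted p = 0.982). Over all 133 entries 25.6% were called and 14.3% toward the 5′ part, and the median log2 ratio was -0.50. So 2 of 3 paralogs were called toward the 5′ part, with reads placed as deposited. The stretch shared by the 3′ ends of SNORD45A and SNORD45C wholly held 12 short reads listed under SNORD45A and 0 under SNORD45C. The fit was not rerun with those reads left out or moved to SNORD45C, so their part in the SNORD45C call was not tested. Without library 2 and without library 3 this fit called 0 of 114 and 0 of 112 entries (21 and 23 at an unadjusted p under 0.05), and SNORD45A had adjusted p of 0.214 and 0.211 with log2 ratios of -3.66 and -3.47. With short reads limited to 30 nt SNORD45B had 13 reads in the 3′ part and 7 in the 5′ part, a log2 ratio of 0.86 with an edgeR adjusted p of 0.552. At that limit SNORD45C had 1 and 24 reads and a log2 ratio of -4.22 (edgeR adjusted p = 0.00894). The SNORD45C call was lost without any 1 library (edgeR adjusted p of 0.223, 0.214 and 0.221 without libraries 1, 2 and 3) and in DESeq2 (adjusted p = 0.0664).

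Between paralogs, the 5′ share of short reads was 93.2% ± 3.4 in SNORD45A, 86.9% ± 4.6 in SNORD45C and 49.4% ± 9.2 in SNORD45B (SD, n = 3 each). SNORD45A stood 43.7 ± 11 percentage points above SNORD45B and SNORD45C 37.5 ± 14 above SNORD45B, in 3 of 3 libraries. SNORD45A was 6.24 ± 5.3 points above SNORD45C, also in 3 of 3 (SD, n = 3; exact sign-flip permutation p = 0.25 each, adjusted 0.25 over the 3 pairs). With short reads limited to 30 nt the last difference turned to -6.82 points.

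The stretch that SNORD45A and SNORD45C share bears on the 3′ reads. Of the 190 short reads of SNORD45A, 12 (6, 4 and 2 by library) lay wholly within it, and of the 47 short reads of SNORD45C 0 did. These 12 are all but 1 of the 13 short 3′ reads listed under SNORD45A, and the sources used here do not give how the authors placed reads that match both entries. Left out, a choice made after seeing the data, they leave SNORD45A with 1 short read in the 3′ part and 177 in the 5′ part (mean 5′ share 99.6%). Given to SNORD45C instead, they leave it with 18 short reads in the 3′ part and 41 in the 5′ part (mean 5′ share 69.3%).

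**Figure D3:**
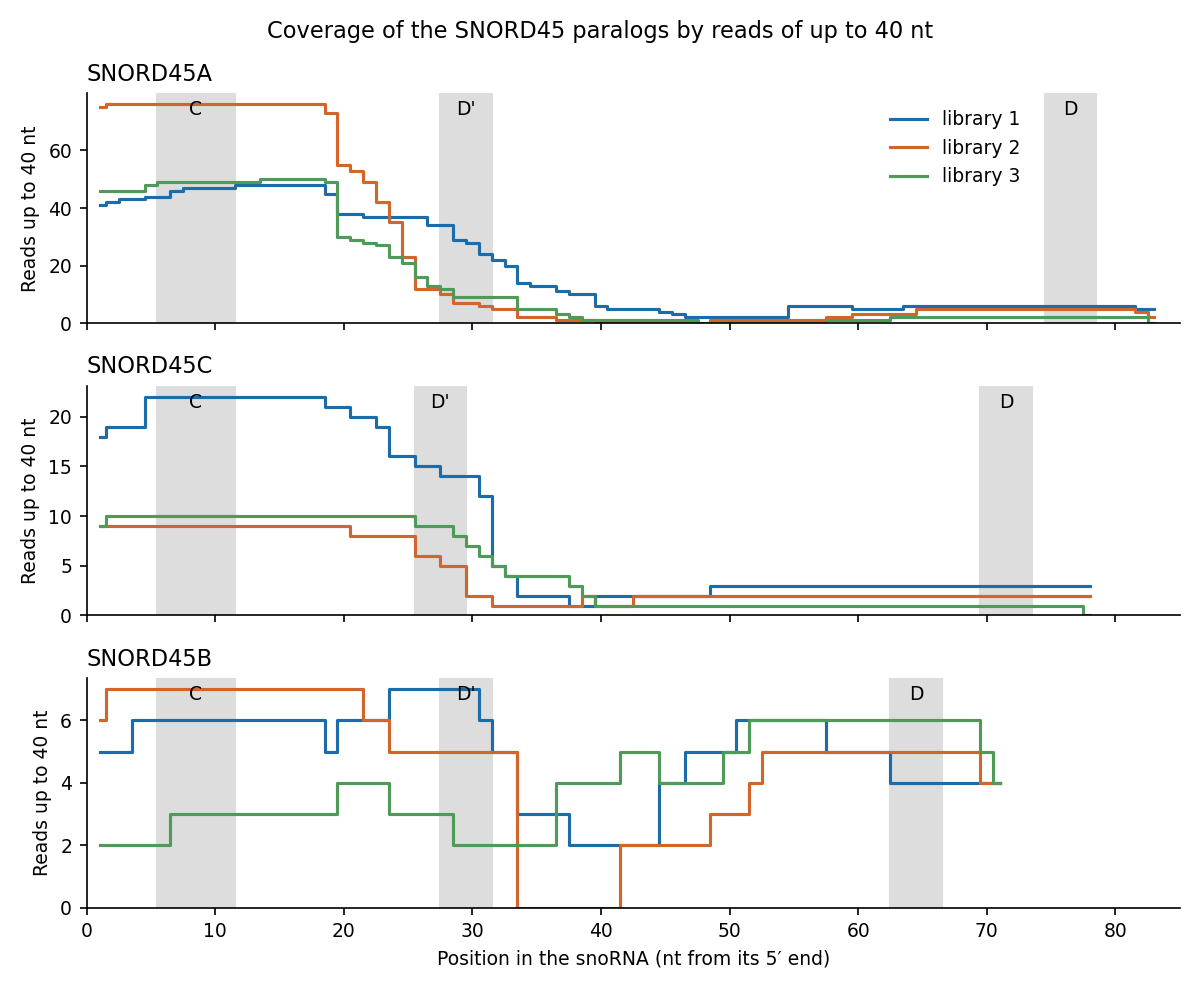
Number of reads of up to 40 nt covering each position (nt from the 5′ end) of SNORD45A, SNORD45C and SNORD45B, 1 line per library, with boxes C, D′ and D shaded. Coverage of SNORD45A and SNORD45C is concentrated before and around box D′ (177 of 190 and 41 of 47 short reads centred in the 5′ part), whereas that of SNORD45B is split between both ends (17 and 17).

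The commonest short read of each RNA began at the first base and passed through box C, whereas the next one of SNORD45B lay in its 3′ part. The 2 commonest of each are shown because they give the read ends relative to the boxes, with the same capitals as above. Whether a read end marks a cut in the RNA was not tested.
SNORD45A 1 to 19: ggtcaATGATGtgttggca
SNORD45A 1 to 25: ggtcaATGATGtgttggcatgtatt
SNORD45B 1 to 33: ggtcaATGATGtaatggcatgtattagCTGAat
SNORD45B 42 to 71: gatgtgagttctaaaattacaCTGAgacct
SNORD45C 1 to 31: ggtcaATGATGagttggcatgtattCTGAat
SNORD45C 1 to 25: ggtcaATGATGagttggcatgtatt
The read of SNORD45A from 1 to 19, which ends inside the stretch ahead of box D′ that all 3 RNAs share, had 7, 18 and 19 reads. It made up 23.2% of the short reads of that RNA over the 3 libraries together, which numbered 57, 81 and 52 by library. The shortest read in the data had 18 nt, so any shorter ones were not seen. Next came 1 to 25 with 1, 11 and 4 reads, 1 to 24 with 0, 11 and 2, and 1 to 23 with 2, 7 and 4. Ends at 33, past box D′ (28 to 31), had 5, 3 and 3 reads starting at position 1. Of the 162 short SNORD45A reads that began at position 1, 116 (17, 63 and 36 by library) ended at 18 to 26, before box D′, and 46 (24, 12 and 10) at 27 or later. In library 1 the later ends were the more numerous, and in libraries 2 and 3 the earlier ones.

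In SNORD45C and SNORD45B the leading short 5′ read ended just past box D′. For SNORD45C it ran from 1 to 31 with 6, 1 and 1 reads, 2 bases beyond the box at 26 to 29, and 1 to 25 (1, 2 and 1 reads) and 1 to 29 (0, 3 and 1 reads) followed. In SNORD45B it ran from 1 to 33 with 2, 5 and 0 reads, again 2 bases beyond the box at 28 to 31. The leading 3′ read of SNORD45B, from 42 to 71, had 0, 2 and 1 reads. With 34 short reads for SNORD45B and 47 for SNORD45C over 3 libraries, the order of single fragments rests on a few reads.

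Short-read lengths were compared as a description, with no test. Over the 3 libraries together, reads of 18 to 25 nt were 121 of the 190 short SNORD45A reads (63.7%), 12 of 47 for SNORD45C (25.5%) and 12 of 34 for SNORD45B (35.3%). By library these numbered 17, 67 and 37 of 57, 81 and 52 for SNORD45A, 8, 3 and 1 of 25, 11 and 11 for SNORD45C, and 3, 5 and 4 of 12, 12 and 10 for SNORD45B. In library 1 the 3 RNAs had similar shares of such reads, and the high share of SNORD45A came from libraries 2 and 3. SNORD45A had 27, 12 and 10 reads of 26 to 33 nt. The median short SNORD45A read had 29 nt in library 1 and 23 nt in libraries 2 and 3, whereas the medians of SNORD45C were 30, 29 and 33 nt and those of SNORD45B 29.5, 30 and 29 nt. Reads of 20 to 24 nt, the size of a miRNA, numbered 5, 33 and 11 for SNORD45A, 5, 1 and 0 for SNORD45C and 1, 3 and 4 for SNORD45B, so 33 of the 49 SNORD45A reads of that size came from library 2. The part of library 2's shorter reads over all snoRNAs in these counts was not tested.

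Most SNORD45B reads were 1 nt shorter than the stretch they were placed on. Counting reads shorter than their span, SNORD45B had 47, 24 and 51 of them, 60.3%, 60% and 76.1% of its reads. SNORD45C had 47, 26 and 54, or 10.9%, 31.0% and 24%, and SNORD45A had 33, 6 and 13, or 4.45%, 2.21% and 3.43%. The groups did not overlap. By mean share SNORD45B (65.5%) was number 1, SNORD45C (21.9%) number 10 and SNORD45A (3.36%) number 60 of 108 box C/D entries, whose median was 4.33%. Of the 122 SNORD45B reads shorter than their span, 118 were shorter by exactly 1 nt.

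Among reads running from the first to the last position, 23 of 33, 13 of 13 and 36 of 41 SNORD45B reads were shorter than their span (69.7%, 100% and 87.8%). For SNORD45C the counts were 27 of 258, 12 of 36 and 36 of 141 (10.5%, 33.3% and 25.5%), and for SNORD45A 13 of 375, 0 of 95 and 5 of 186. Reads that cover only part of SNORD45B split by position. Its sequence holds a run of A at 36 to 38 and another at 54 to 57. Of 155 reads that covered the first run, 122 were shorter than their span, and of 27 that ended before it or began after it, 0 were. Of reads covering only the first run 5 of 6 were shorter, and of those covering only the second run 0 of 13. SNORD45C has the same bases around its run at 34 to 36, within the 17 bases it shares with SNORD45B, and there 125 of 701 covering reads (17.8%) and 2 of 40 others were shorter. These read classes were chosen after seeing the data, and whether the base is missing from the RNA, from the read or only relative to the authors' entry was not tested.

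**Figure D4:**
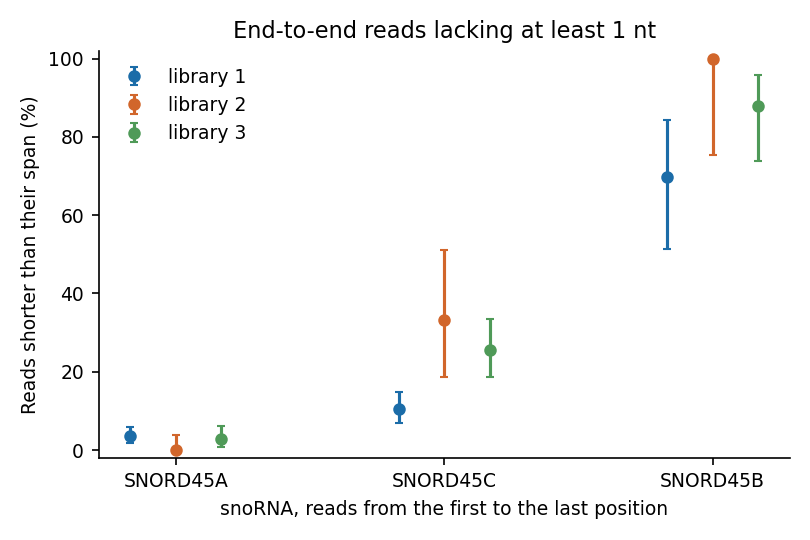
Share (%) of reads running from the first to the last position of SNORD45A, SNORD45C and SNORD45B whose length is at least 1 nt below the stretch they cover. Points are libraries with exact 95% binomial intervals: SNORD45B lies at 69.7% to 100%, SNORD45C at 10.5% to 33.3% and SNORD45A at 0 to 3.47%.

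Other box C/D snoRNAs known as 18S rRNA guides were set beside the family. The list was drawn up from general knowledge with no target checked, and the target of SNORD121A is uncertain. Of the 33 listed, 29 were found. Their median level was 0.263% of the counts, with a range of 0.0245% to 3.73%. Of these 29, 3 had a mean share above SNORD45A, 4 above SNORD45C and 12 above SNORD45B. In the full-length fit 5 of the 19 tested passed toward more and 6 toward fewer full-length reads, with a median log2 ratio of 0.41 against -0.25 over all 125, of which 23.2% passed toward more and 37.6% toward fewer. The 4 with the largest log2 ratios all passed toward fewer, namely SNORD121A (0 full-length and 173 other reads), SNORD105 (1 and 63), SNORD14A (15 and 119) and SNORD100 (568 and 1021). SNORD121A had 12 short and 161 longer reads, and its full-length limit rests on the highest position seen for that entry. In the short-read fit 4 of 19 passed toward more and 2 toward fewer short reads, with a median log2 ratio of -0.063, equal to that of all 125, of which 25 (20%) passed toward more and 14.4% toward fewer. SNORD105 (49 short and 15 longer reads), SNORD14A (76 and 58) and SNORD57 (52 and 79) passed toward more, and SNORD100 (84 and 1505) toward fewer. In the position fit 1 of 22 passed toward the 3′ and 3 toward the 5′ part, with a median of -0.95 against -0.50 over all 133, of which 11.3% passed toward the 3′ and 14.3% toward the 5′ part. SNORD14A had 74 short reads in the 3′ and 2 in the 5′ part, whereas SNORD44 (33 and 530), SNORD105 (1 and 48) and SNORD57 (5 and 47) lay toward the 5′ part, as SNORD45A and SNORD45C did.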

How the data were processed

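Per the file headers, the authors deposited raw counts per distinct read: snoRNA entry, read length, first and last position and number of reads. A deposited table of counts gave the same sums for library 1 (742, 78 and 432), and its 2 columns that match no sample title were not used. GRCh38.p10 is the build named in the submitters' processing notes. The sources used here give no aligner, trimming or read filter.

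RNA length was the highest position seen in any library, full-length reads spanned at least 90% of it, and short reads had up to 40 nt. Totals were 19989, 11958 and 19092 counts. Libraries are numbered as in their titles. Entries were named from RefSeq (GRCh38.p14, 242 of 260 matched) and sequences and coordinates came from GENCODE 29 (GRCh38). Ratios within entries were fitted in edgeR 4.0.16 by quasi-likelihood, keeping the library as a block, with Benjamini-Hochberg adjustment at 0.05, over all entries with at least 10 counts in every library (full-length and short reads, TMM factors) or at least 10 short reads over the libraries (position, 1 library size for both parts), and tested on simulated data. The SE of a log2 ratio was taken from the quasi-likelihood F statistic. The edgeR p-values rest on dispersions estimated with information from all entries fitted, not on the spread of 1 RNA over 3 libraries alone. On the simulated data the full-length fit recovered 94.23% of 4-fold effects and the short-read fit 84.62%. The position fit recovered 41.35% of 4-fold and 81.25% of 16-fold effects, so it can miss differences of that size. Differences between paralogs went through sign-flip permutation tests, exact and two-sided. DESeq2 1.42.0 served as an alternative, beside other limits, reads counted once per record, reads whose length equals their span and each library left out. Scripts ran in R 4.3.3 and in Python 3.11.15 with Biopython 1.88, SciPy 1.17.1, NumPy 2.4.6, matplotlib 3.10.9 and pandas 2.3.3. In the text the 3 paralogs are always named, with the 5 most frequent read stretches of each (over all reads and over short reads) considered, the neighbours in level, and up to 4 called 18S guides per fit. The members and lists were chosen with earlier results of these data known.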

Additional observations from a re-analysis of the deposited data

How the results depend on the processing

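The order of levels kept its direction in 24 of 24 values, over the alternatives tried for 3 pairs. Counts divided by length, and the handling of reads in the shared stretch, were chosen after seeing the data. With 3 libraries the exact test between paralogs cannot pass 0.05, so its p shows no stability. No paired analysis was possible because there is 1 group, so no groups could be paired by number; the paralogs themselves were compared within libraries. Some differences between paralogs changed sign under an alternative. For SNORD45A against SNORD45B the full-length difference was -5.13 points with each record counted once, and -0.35 to 1.55 points when libraries were left out. The short-read difference of this pair was 2.62 points with the limit at 30 nt, against -3.01 in the main setting. At that limit the 5′ share of SNORD45A against SNORD45C was -6.82 points, against 6.24 in the main setting.

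In the full-length fit SNORD45A was at -0.15 and SNORD45B at -0.28 with full length taken from 80%, at 0.55 and 0.24 with it taken from 95%, and at 0.60 and 0.55 with column totals (edgeR adjusted p of 0.0529 and 0.315), and without single libraries they ranged from -0.018 to 0.28 and from -0.022 to 0.15. With reads whose length equals their span SNORD45B passed the threshold at -2.42, and in the short-read fit at 3.19, because this setting removes most of its full-length reads. There SNORD45C was at -0.95 without a call, and -1.26 to -1.06 without single libraries. SNORD45A short reads were at -0.30 with each record counted once, -0.25 with no filter on low counts and -0.042 with column totals, and -0.23 to 0.32 without single libraries. Column totals moved the median full-length log2 ratio over all entries to 0.23, with 40 entries called toward more and 34 toward fewer full-length reads against 29 and 47 with TMM. For position, SNORD45B was at 0.86 with the limit at 30 nt, -0.31 when placed by the 5′ end and -0.24 to 0.27 without single libraries, SNORD45A at -4.16 to -3.47 and SNORD45C at -2.95 to -2.51 without single libraries, and SNORD45C lost its call in DESeq2 (-2.76). The short-read fit called 43 entries, 66 with no filter and 25 to 35 without single libraries. The position fit called 34 entries, 19 in DESeq2 and 0 to 15 without single libraries. Depth limits SNORD45B most, with 185 reads in all.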
